A study of Mus musculus with 6 samples.

Results

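The 10 genes described here are targets of the miR-148 family named in the literature: Cdkn1b, Gadd45a, Arpp19, Met, Nptn, Abca1, Txnip, B4galt5, Cand1 and Tgif2. They were taken by gene symbol from 25112 genes in the authors' deposited table, and each was represented by its RefSeq transcript with the highest base mean, the authors' mean normalized count over all libraries. Of the 10 genes, 8 have a row with an adjusted p-value, and Txnip and Tgif2 are listed at 0. Keratinocytes, the main cells of the epidermis, were isolated from the skin of wild-type C57BL/6 mouse pups aged 1 to 3 days and cultured in medium with 0.05 mM calcium. The 3 pro-miR-148a libraries came from cells transfected with that microRNA precursor at 200 nM. The 3 miR-Control libraries came from cells transfected with a control small RNA, also at 200 nM. RNA was collected at 48 h in both groups. The titles number the pro-miR-148a libraries as replicates 1 to 3, but replicates 1 and 3 share a second sample number, 1, while the miR-Control libraries each have their own. The labels do not say what that number marks, nor whether replicates came from separate cultures or animals, so the p-values measure only the spread between these libraries, which may be technical. The comparison asks which transcripts differ once miR-148a is raised.

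MicroRNAs guide the silencing complex to messenger RNAs by pairing of their seed, the bases 2 to 8 from the 5′ end, mostly with sites in the 3′ untranslated region (UTR). Pairing leads to weaker translation and faster decay of the messenger, so part of the effect is not visible in RNA levels. miR-148a, miR-148b and miR-152 form a family because they share a seed. Their targets include brakes of the cell cycle, receptors and regulators of cholesterol export.

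The mature sequences are shown because the seed, in capitals, defines which sites were searched for (RefSeq, GRCm38.p6).
miR-148a-3p: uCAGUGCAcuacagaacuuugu
miR-148b-3p: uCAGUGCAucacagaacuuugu
miR-152-3p: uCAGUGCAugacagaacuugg
In GRCm38.p6 the mature miR-148a-3p lies at chr6:51269829-51269850 on the minus strand, miR-148b-3p at chr15:103285185-103285206 and miR-152-3p at chr11:96850439-96850459, both on the plus strand. The transfected microRNA itself cannot be checked in these data: the authors' deposited table lists the Mir148a gene (NR_029719) at a base mean of 0.161, and the rows of Mir148b and Mir152 are listed at 0.

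The seed pairs with TGCACTG in a messenger. That match is a 7mer-m8 site, the same match followed by A (TGCACTGA) is an 8mer, GCACTGA without the preceding T is a 7mer-A1, and GCACTG alone is a 6mer. Only the sense strand of the messenger was searched, and each site is counted once under its longest form. Each of the 10 genes holds at least 1 site of 7 or more bases in its 3′ UTR (GENCODE M21, build GRCm38, longest annotated UTR), against 21.3% of 9874 tested genes with a UTR of at least 20 bases. An 8mer is present in 6 of the 10, namely Gadd45a, Arpp19, Nptn, B4galt5, Cand1 and Tgif2, against 4.11% of tested genes. These UTRs are long, with a median of 3024 bases against 1129 bases for all tested genes; among tested genes with UTRs of 1000 to 4000 bases, 28.8% hold a site of 7 or more bases and 5.40% an 8mer. Genes enter the literature as targets partly because they carry sites, so this share is a description of the list.

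The best site of each gene is shown with its flanks because these are the stretches through which miR-148a could act. The letters are those of the messenger, with the site in capitals, in the transcript that GENCODE pairs with the RefSeq accession of the table or, for Arpp19 and Nptn, with another accession of the gene.
Cdkn1b, 7mer-A1: atggacatcctgtataaGCACTGAgaaa
Gadd45a, 8mer: aataactgaaccaaatTGCACTGAagtt
Arpp19, first 8mer: tggattagtttcacagTGCACTGAtgca
Arpp19, second 8mer: tgaatgggtgtgcatgTGCACTGActat
Met, 7mer-m8: ttaggccgcagaaatccTGCACTGtgag
Nptn, 8mer: aaattctgaaatctttTGCACTGAtgtg
Abca1, first 7mer-m8: agagcgaggtcttccttTGCACTGtgtc
Abca1, second 7mer-m8: tgtaatggatctattttTGCACTGgaat
Txnip, 7mer-m8: gccattttacagccagtTGCACTGtgtt
B4galt5, 8mer: gccaggggtacattttTGCACTGAaacc
Cand1, 8mer: ccatgtgaccgcacaaTGCACTGAacga
Tgif2, 8mer: tcttttccccccacagTGCACTGAgcaa
In all, these transcripts hold 28 matches to the 6-base core GCACTG, of which 7 are 8mers, 6 are 7mer-m8, 5 are 7mer-A1 and 10 are 6mers. The share of A and T in the 30 bases on either side of these best sites ranged from 41.7% in Cand1 and Tgif2 to 75% in Nptn.

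**Figure D1:**
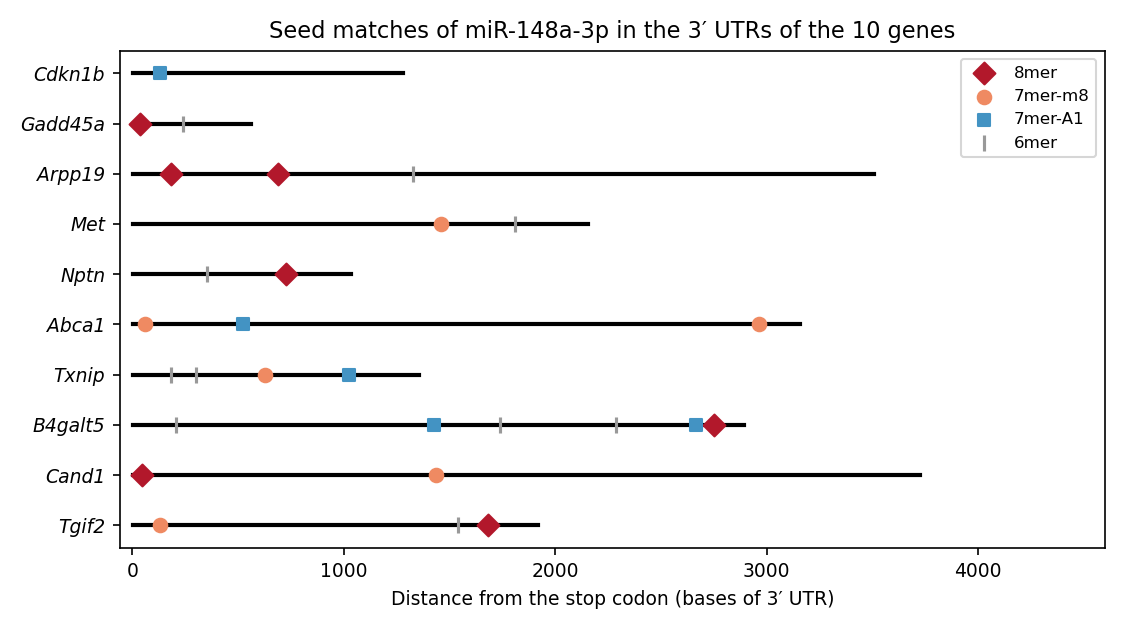
Seed matches along the 3′ UTR of each gene; the x axis is the distance from the stop codon in bases, each black line is 1 UTR and each marker 1 site, coloured by type. Arpp19 carries 2 8mers, B4galt5 has 6 matches to the core of which 3 are 6mers, and Cdkn1b has a single 7mer-A1.

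The authors' deposited table gives no value per library. It lists for each transcript a log2 fold change with its standard error (SE) and an adjusted p, but it does not state the numerator of the fold change, so signs are printed as deposited and no gene is called higher or lower with pro-miR-148a. The title of the table names the control before the miR-148a mimic. If the group named first is the numerator, a positive value stands for a lower level with pro-miR-148a, and if the second is, for a higher one. Intervals are 95% intervals computed from the deposited SE.

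The genes that passed the test did not share a sign. Of the 8 genes with a value, 3 were positive (Gadd45a, B4galt5 and Cdkn1b), 1 was negative (Met) and 4 did not pass (Nptn, Cand1, Arpp19 and Abca1) at an adjusted p of 0.05 in the authors' deposited table. Over all 11038 genes tested, 33.5% passed, 16.8% with a positive sign and 16.7% with a negative one. The median log2 fold change of the 8 genes was 0.16 as deposited, against 0.01 for all genes tested, whose quartiles were -0.24 and 0.30. Power differs among them: of the 5 with base means of 500 or more, 3 passed the test, where 54.1% of all genes that abundant did. The share that passed is thus close to that of other abundant genes. With a stricter adjusted p of 0.01, 2 of the 8 were positive and 1 negative, against 13% and 13.1% of all genes tested. With a required size of at least 0.5 on the log2 scale, 3 were positive and 0 negative, against 10.5% and 7.29%. The calls of the 8 genes did not change when p-values were adjusted over all transcripts with a p (10.9% of all genes positive, 10.9% negative). They also held after centring on the median of all tested transcripts (16.2% and 17.4%). Taking the row with the lowest p (17.3% and 17.1% of all genes) could not change them, since none of the 8 has another row with a p.

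**Figure D2:**
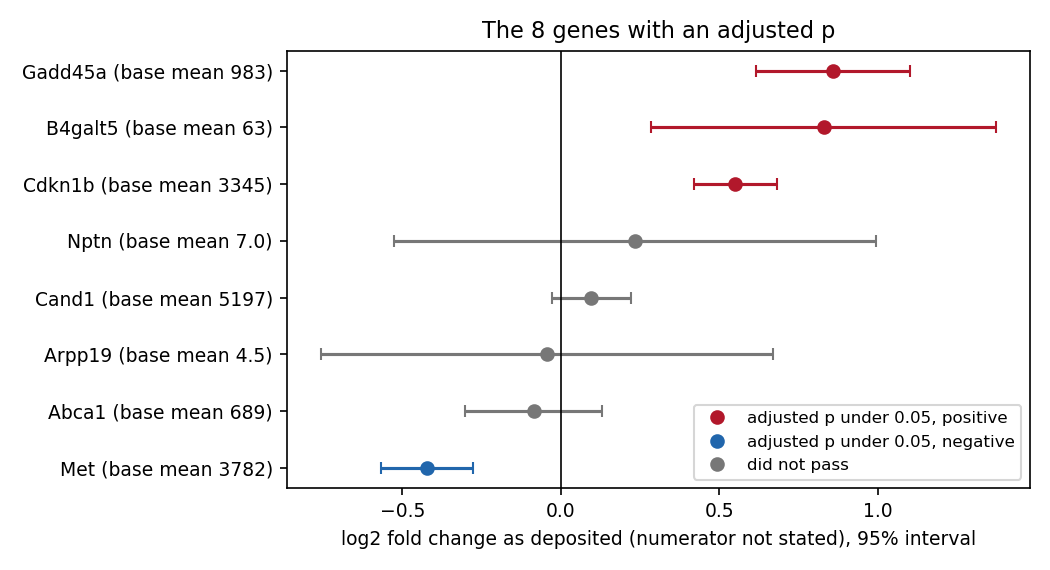
Log2 fold change of the 8 genes with a value, as deposited, on the x axis with its 95% interval, in order of value; colours mark the call at an adjusted p of 0.05. Gadd45a, B4galt5 and Cdkn1b lie to the right of 0 and Met to the left, and the intervals of Nptn and Arpp19 are the widest.

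Among the genes of the cell cycle and of stress, Cdkn1b had the strongest statistical support of the 8. It encodes p27, an inhibitor of cyclin-dependent kinases that holds cells before S phase. Its log2 fold change as deposited was 0.55 ± 0.07 (SE), a 1.46-fold difference with an interval of 1.34 to 1.60, at a base mean of 3345 and an adjusted p of 4.55e-15 in the authors' deposited table (NM_009875). That value lies above 87.0% of all genes tested. Its only site is the 7mer-A1 at bases 126 to 132 of a 1280-base UTR (chr6:134924359-134924365, plus strand, GRCm38), with 70.0% A and T around it.

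Of the genes that work beside p27, more passed with the sign opposite to that of Cdkn1b than with the same sign. Of 13 tested genes of this list, 1 was positive (7.69%, against 16.8% of all genes tested) and 4 were negative (30.8%, against 16.7%). The other 8 missed the threshold in the authors' deposited table, and the median was -0.29. The shares of 16.8% and 16.7% are the background for each list below. Abundant genes pass more often: 54.1% of those with base means of 500 or more passed with either sign. Cyclin D1 (Ccnd1), which drives entry into the cycle and can sequester p27, had -0.81 ± 0.07 (SE) in the authors' deposited table. Cyclin E1 (Ccne1), a partner of the kinase that p27 blocks, had -0.78 ± 0.15 (SE) in the authors' deposited table. Not all G1 cyclins shared that sign: Ccnd2, the most abundant of them at a base mean of 17887, had 0.15 ± 0.07 (SE) with an adjusted p of 0.0872 in the authors' deposited table. The other inhibitor that passed with the sign of Cdkn1b was Cdkn2b (p15), at 0.55 ± 0.11 (SE), in the authors' deposited table. Inhibitors did not share a sign either: Cdkn2d had -0.46 ± 0.19 (SE) with an adjusted p of 0.0464 in the authors' deposited table.

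Gadd45a had the largest listed difference of the 8 genes, close to that of B4galt5 (0.83 ± 0.28 SE). It encodes a small protein induced by DNA damage and other stress, which takes part in growth arrest and in active DNA demethylation. The authors' deposited table gives it a log2 fold change of 0.86 ± 0.12 (SE), a 1.81-fold difference (interval 1.53 to 2.15), at a base mean of 983 and an adjusted p of 7.79e-11 (NM_007836). In size this exceeds 90.4% of all genes tested. Its 8mer starts 32 bases into a UTR of 563 bases, the shortest UTR of the 10 (chr6:67035620-67035627, minus strand, GRCm38). It is also the only gene of the 10 with a 7mer-m8 match in its coding sequence. An annotated noncoding transcript, E230016M11Rik, overlaps Gadd45a on the opposite strand, and the sources used here do not give the strand setting of the counting.

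The other Gadd45 genes had the opposite sign. Gadd45g stood at -2.10 ± 0.12 (SE), a 4.27-fold difference, in the authors' deposited table. Gadd45b stood at -1.10 ± 0.08 (SE), a 2.14-fold difference, in the authors' deposited table. All 6 tested genes of the Gadd45 list, which also holds cell cycle partners, were negative by adjusted p in the authors' deposited table. Their median was -0.98, and 16.7% of all genes tested were negative. Among them the mitotic cyclin Ccnb1, whose kinase Gadd45 proteins can inhibit, had -1.15 ± 0.08 (SE) in the authors' deposited table.

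Arpp19 could be measured only through a minor row. Its product, once phosphorylated by the kinase MASTL, inhibits the phosphatase PP2A-B55 and so permits entry into mitosis. Of its 7 transcripts in the authors' deposited table, 6 are listed at 0, and the remaining NM_001357880 has a base mean of 4.51. On that row the log2 fold change was -0.04 ± 0.36 (SE), with an interval of -0.76 to 0.67 and an adjusted p of 0.952 in the authors' deposited table. A difference of up to 1.69-fold lies inside this interval. The largest deposited SE is 0.393, also at low base means, so the interval is not taken as a bound on the difference. Arpp19 has more 8mers than any other of the 10, at bases 179 to 186 (chr9:75056984-75056991) and 683 to 690 (chr9:75057488-75057495) of a UTR of 3508 bases (plus strand, GRCm38). The sister gene Ensa, which shares its function, passed at 0.18 ± 0.07 (SE), and Mastl at -0.37 ± 0.11 (SE), in the authors' deposited table. Of 6 tested genes of this list, 1 was positive and 2 were negative in the authors' deposited table, the third of these calls being the PP2A catalytic subunit gene Ppp2ca (-0.25 ± 0.05 SE).

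Among the surface and membrane genes, Met was the one member that passed with a negative sign. It encodes the receptor tyrosine kinase for hepatocyte growth factor, which drives migration and growth of epithelial cells, also in wounded skin. The authors' deposited table gives it -0.42 ± 0.07 (SE), a 1.34-fold difference (interval 1.21 to 1.48), at a base mean of 3782 and an adjusted p of 1.53e-07 (NM_008591). Its interval, -0.57 to -0.28, does not overlap those of Gadd45a, Cdkn1b or B4galt5. It holds 1 7mer-m8 at bases 1457 to 1463 of 2157 (chr6:17573280-17573286, plus strand, GRCm38).

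Genes around Met split evenly. Of 7 tested genes, 2 were positive and 2 negative in the authors' deposited table, with a median of 0.04. That is 28.6% for each sign, against 16.8% and 16.7% of all genes tested. Spint1, an inhibitor of the proteases that activate the Met ligand, had the sign of Met, at -0.49 ± 0.07 (SE), in the authors' deposited table. The ligand of the related receptor Mst1r, Mst1, had 0.50 ± 0.13 (SE), and Cbl, the ubiquitin ligase that removes active Met from the surface, 0.25 ± 0.09 (SE), in the authors' deposited table. The ligand gene Hgf is listed at 0 in all 5 of its transcripts, which does not measure absence.

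Nptn, which encodes the immunoglobulin-domain glycoprotein neuroplastin, was also seen only through a minor row. Of its 4 transcripts, 3 are listed at 0 in the authors' deposited table, and NM_001357751 has a base mean of 6.96 with a log2 fold change of 0.23 ± 0.39 (SE) and an adjusted p of 0.726. The interval of -0.53 to 0.99 takes in differences of up to 1.99-fold and, as for Arpp19, is not taken as a bound. Its 8mer, at bases 723 to 730 of a UTR of 1034 bases (chr9:58652567-58652574, plus strand, GRCm38), has the flanks richest in A and T among the best sites. The protein-coding gene Rec114 overlaps Nptn on the opposite strand. Among its family and partners, Emb (embigin), a relative that like neuroplastin chaperones transporters, had 0.44 ± 0.08 (SE), and the lactate transporter Slc16a1 0.37 ± 0.08 (SE), in the authors' deposited table. These were the 2 of 3 tested genes of that list that passed in the authors' deposited table.

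Abca1, the transporter that loads cholesterol onto apolipoprotein A-I and is a known miR-148a target in liver, did not pass. Its log2 fold change was -0.09 ± 0.11 (SE) at a base mean of 689, with an adjusted p of 0.633, in the authors' deposited table (NM_013454). The interval, -0.30 to 0.13, reaches a 1.23-fold difference, but it rests on a spread between libraries that may be technical. This gene holds 2 7mer-m8 sites, at bases 54 to 60 (chr4:53033883-53033889) and 2963 to 2969 (chr4:53030974-53030980) of 3156, and a 7mer-A1 between them (minus strand, GRCm38). Its relative Abcg1, which passes cholesterol to high-density lipoprotein, passed at -0.47 ± 0.09 (SE), and Mylip, the ubiquitin ligase that degrades the LDL receptor, at 0.55 ± 0.14 (SE), in the authors' deposited table. Of the 4 tested genes of that list, the other 2 did not pass in the authors' deposited table.

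Txnip could not be compared. It encodes an arrestin-like protein that binds thioredoxin and restrains glucose uptake, and it has a 7mer-m8 at bases 622 to 628 of 1354 (chr3:96561151-96561157, plus strand, GRCm38) and a 7mer-A1. Both of its transcripts (NM_001009935 and NM_023719) are listed at 0 in the authors' deposited table, which does not measure absence. The antisense gene Gm15441 overlaps it on the opposite strand. Its relatives split: Arrdc4 had -0.49 ± 0.08 (SE) and Arrdc2 0.65 ± 0.14 (SE) in the authors' deposited table. The glucose transporter gene Slc2a1 had -0.44 ± 0.07 (SE) in the authors' deposited table, where 2 of 7 tested genes of this list were positive and 3 negative.

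B4galt5, the galactosyltransferase that makes lactosylceramide, was second in size among the 8 and least precise among those that passed. The authors' deposited table gives it 0.83 ± 0.28 (SE), a 1.78-fold difference with an interval of 1.22 to 2.59, at a base mean of 62.6 and an adjusted p of 0.0113 (NM_019835). It does not pass at an adjusted p of 0.01. B4galt5 holds the most core matches of the 10, 6 in a UTR of 2892 bases, of which the 8mer lies at bases 2749 to 2756, 136 bases before the UTR ends (chr2:167298580-167298587, minus strand, GRCm38). Of the 4 tested relatives that add galactose in the same linkage, B4galt3 passed, at 0.39 ± 0.11 (SE), in the authors' deposited table. The other lactosylceramide synthase, B4galt6, stood at 0.08 ± 0.28 (SE) with an adjusted p of 0.867 in the authors' deposited table.

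Cand1 gave the narrowest interval of the 8 genes and did not pass. Its product exchanges the substrate receptors of cullin-RING ubiquitin ligases. In the authors' deposited table the log2 fold change was 0.10 ± 0.06 (SE) at a base mean of 5197, the highest of the 8, with an adjusted p of 0.275 (NM_027994). The interval, -0.03 to 0.22, reaches 1.17-fold, but it rests on a spread between libraries that may be technical. Cand1 has an 8mer 42 bases into its UTR (chr10:119202932-119202939, minus strand, GRCm38) and a 7mer-m8 further on, in a UTR of 3726 bases. The flanks of the 8mer hold 41.7% A and T, against 65.0% around the 8mer of Gadd45a. The 7mer-m8 sites of Abca1, which did not pass either, have 53.3% and 70.0%, and that of Met has 56.7%. Whether the flanks bear on these values was not tested. Its paralog Cand2 had -0.93 ± 0.24 (SE), the RING subunit gene Rbx1 -0.32 ± 0.07 (SE) and the adaptor gene Skp1 0.32 ± 0.07 (SE) in the authors' deposited table. In that list 1 of 7 tested genes was positive and 3 were negative in the authors' deposited table, and 5 of its 13 genes are listed at 0.

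Tgif2, a homeodomain co-repressor of TGF-beta signalling, is listed at 0 in both of its transcripts (NM_001291124 and NM_173396) in the authors' deposited table. Its UTR of 1920 bases holds an 8mer at bases 1678 to 1685 (chr2:156855328-156855335, plus strand, GRCm38) and a 7mer-m8. Annotated genes overlap it on the opposite strand, as for Txnip. The related co-repressor Tgif1 passed at 0.64 ± 0.16 (SE), and the histone deacetylase gene Hdac1 at -0.27 ± 0.07 (SE), in the authors' deposited table. These were the 2 calls among 5 tested genes of that list in the authors' deposited table.

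**Figure D3:**
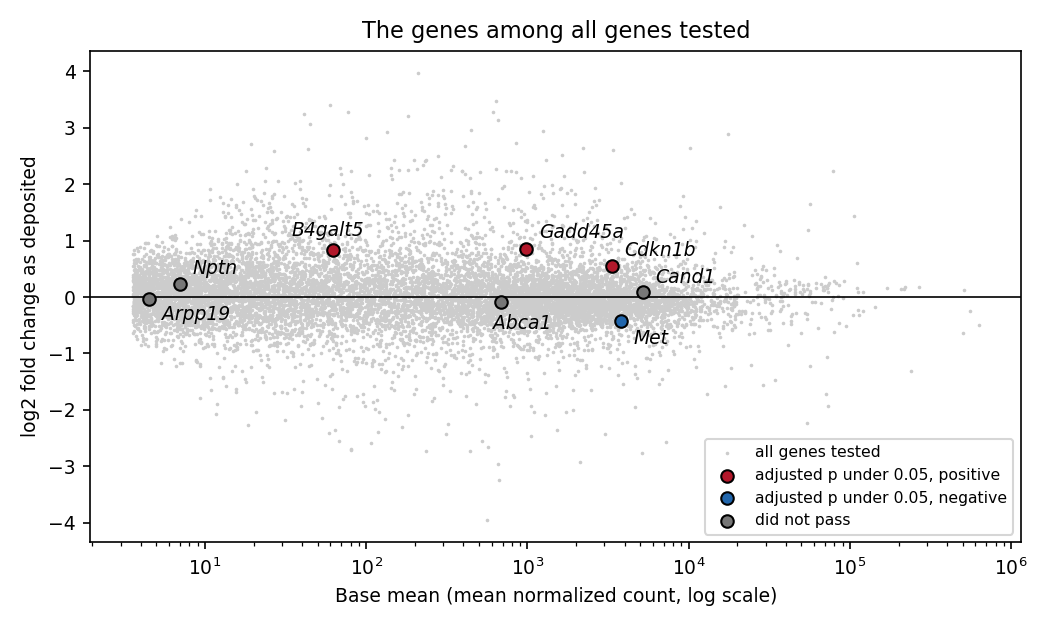
Log2 fold change as deposited (y axis) against base mean (x axis, log scale) for all genes tested (grey) and the 8 target genes (coloured by call). Met, Cdkn1b and Cand1 lie at similar base means of 3345 to 5197 with values of -0.42, 0.55 and 0.10.

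Sorted by best site, genes with an 8mer went from -0.04 (Arpp19) to 0.86 (Gadd45a) in the authors' deposited table, those with a 7mer-m8 were Met (-0.42) and Abca1 (-0.09), and the gene with a 7mer-A1 alone was Cdkn1b (0.55). Among 8mer genes with a single transcript, Gadd45a (0.86) and B4galt5 (0.83) lay above Cdkn1b and Cand1 (0.10) below it. The intervals of Gadd45a (0.62 to 1.10) and B4galt5 (0.28 to 1.37) overlap that of Cdkn1b (0.42 to 0.68). Differences between genes were not tested. The 8mer genes Nptn and Arpp19 also lay below Cdkn1b, but on minor rows at base means of 6.96 and 4.51. Both 7mer-m8 genes had values below 0, and of these Abca1 did not pass. Among other tested genes, those with an 8mer had a median of 0.11 as deposited in the authors' deposited table, with 29.2% of 401 positive and 11.7% negative by adjusted p. Genes whose best site was a 7mer-m8 had a median of 0.05, with 19.7% of 1045 positive and 15.8% negative, in the authors' deposited table. The quartiles of that class were -0.21 and 0.33. Met lay below the lower quartile. Abca1 lay between the quartiles, and its interval takes in the class median. Genes whose best site was a 7mer-A1 had a median of 0.04, with 22.5% of 650 positive and 15.2% negative, in the authors' deposited table. Genes whose best site was a 6mer had a median of -0.01, with 16.4% of 1516 positive and 17.7% negative, in the authors' deposited table. Genes with no site of 6 or more bases had a median of -0.01, with 16.1% of 6254 positive and 19.0% negative, in the authors' deposited table. Median UTR lengths also differed between these classes. They were 2278 bases with an 8mer, 2424 with a 7mer-m8, 2229 with a 7mer-A1, 1834.5 with a 6mer and 730 without a site.

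Further literature targets of the family passed about as often as genes at large with either sign. Of 32 such genes, 22 were tested; 15 of them missed the threshold in the authors' deposited table, 4 were positive (18.2%, against 16.8% of all genes tested) and 3 negative (13.6%, against 16.7%), around a median of -0.01. In the authors' deposited table the Wnt ligand gene Wnt10b had 1.36 ± 0.37 (SE), at a low base mean of 26.0. The integrin gene Itgb8 had 0.91 ± 0.15 (SE) and the cyclin gene Ccna2 -0.82 ± 0.10 (SE) in the authors' deposited table.

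**Figure D4:**
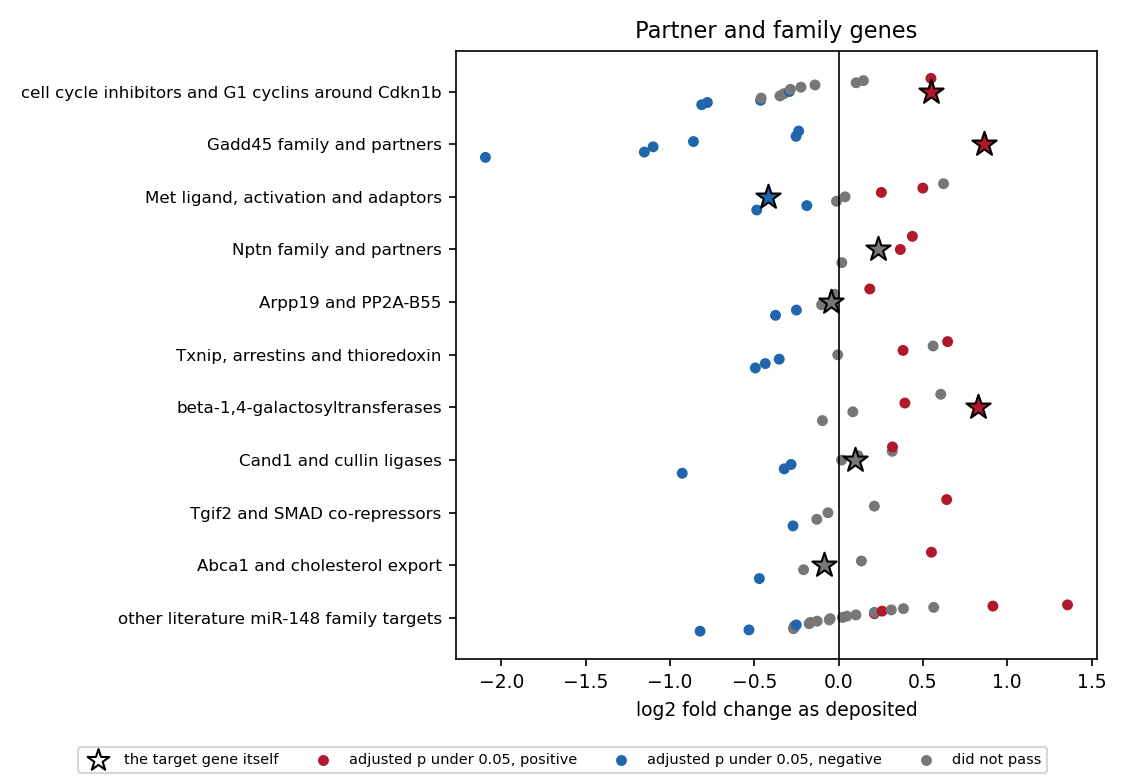
Log2 fold change as deposited for tested genes of each partner or family list (dots, spread vertically for legibility) and for the target gene itself (star), coloured by call; Txnip and Tgif2 have no star because they are listed at 0. Gadd45a lies at 0.86 while all 6 tested genes of its list are negative.

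Whether a gene had a usable row went with how many transcripts it has in the authors' deposited table. The 6 genes listed as a single transcript had base means of 62.6 or more, while the 4 with several transcripts (Arpp19 7, Nptn 4, Txnip 2, Tgif2 2) had base means of at most 6.96 in the authors' deposited table. The same held over the whole of the authors' deposited table: 34.5% of transcripts of single-transcript genes were listed at 0, against 61.3% for genes with 2 transcripts, 78.3% with 4 and 87.1% with 7. Top rows reached a base mean of 500 in 25.9% of single-transcript genes and in 3.33% of genes that have 2. For these 4 genes the row used may not stand for the gene as a whole.

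**Figure D5:**
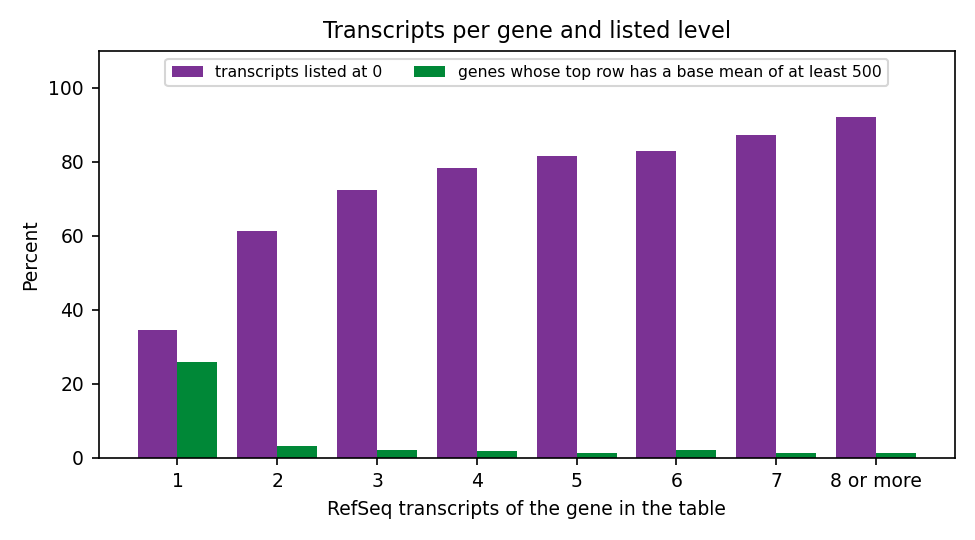
Percent (y axis) of transcripts listed at 0 and of genes whose top row reaches a base mean of 500, by the number of RefSeq transcripts of the gene in the table (x axis). The share at 0 goes from 34.5% with 1 transcript to 92.0% with 8 or more.

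The base means of all transcripts add up to 2.65e+07 in the authors' deposited table, and the depth of each library is unknown. The keratinocyte label rests on Krt5, at a base mean of 630448, since Trp63 is listed at 0 and the other 4 markers, each with several transcripts, lie between 4.22 and 40.3 in the authors' deposited table. Krt5 passed with a negative sign, that of Met, at -0.49 ± 0.06 (SE) and an adjusted p of 1.9e-13 in the authors' deposited table; the other 4 did not pass. Fibroblast markers are present too, with Col1a1 at a base mean of 11119 (summed base mean 24979). Of 7, 5 were positive by adjusted p, the sign of Cdkn1b, Gadd45a and B4galt5, in the authors' deposited table. Their median was 0.42, and 16.8% of all genes tested were positive. Of 5 melanocyte markers, with a summed base mean of 15004, 1 was positive, of 5 immune markers 2 were positive and 3 are listed at 0, and of 4 endothelial markers 1 was positive and 2 are listed at 0, in the authors' deposited table. Both immune genes had large values at low base means: Lyz2 stood at 2.63 ± 0.34 (SE), at a base mean of 43.8, and C1qa at 2.72 ± 0.39 (SE), at 19.4, in the authors' deposited table. The part of these cell types in the values of the target genes was not tested. In such bulk samples fewer cells of a type and less RNA per cell cannot be told apart.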

How the data were processed

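RNA sequencing compared pro-miR-148a (3 libraries) with miR-Control (3 libraries) in primary mouse keratinocytes; groups follow the sample titles. Per the submitters' processing notes, the tool is DESeq2 and the build mm9, without version or role. Aligner, read counter and transcript annotation: not given in the sources used here. The columns deposited by the authors are, per the file headers, the base mean (signal averaged as normalized counts over all libraries), the log2 fold change with its standard error, the Wald score, and p-values before and after adjustment. The Wald score equals the fold change divided by its standard error in every row with values, to within 1e-06. The largest deposited standard error is 0.393, also at low base means. No source used here says whether fold changes were shrunk. The SE was smaller at the lowest counts: 0.146 for Mir148a at a base mean of 0.161, against 0.388 for Nptn at 6.96. With shrinkage, differences at low base means are larger than listed, and the intervals there do not bound them. Those intervals are therefore not taken as bounds here. The deposited table of GO categories has no rows for genes and was not used.

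Transcripts were paired with symbols by RefSeq accession (42739 of 42885 matched, GRCm38.p6), and each gene took its row with the highest base mean. The table has no column for any single library, so the main test is the authors' own adjusted p at 0.05, and no test was run on samples. Intervals are the log2 fold change ± 1.96 SE. 3′ UTRs were cut after the stop codon from GENCODE M21 transcripts (minimum 20 bases). No mm9 coordinates are given. The members and lists were chosen with earlier results of these data known. Named list genes are up to 3 per list with the largest size of log2 fold change among those past the threshold. Cdkn2d, Ccnd2, B4galt6, Hgf, Rec114 and the other overlapping genes were named after their values were seen. The alternatives were a threshold of 0.01, a minimum log2 fold change of 0.5, adjustment over all p-values, the row with the lowest p, centring, a base mean of at least 100 and other UTRs. Python 3.11.15, pandas 2.3.3 and scipy 1.17.1 were used.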

Additional observations from a re-analysis of the deposited data

How the results depend on the processing

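No paired analysis was possible because the deposited table holds no values per library; leaving out each replicate in turn was not run for the same reason. Requiring a log2 fold change of at least 0.5 in size left 0 negative genes of the 8, since Met lies at -0.42, and 3 positive; without that minimum 1 was negative. At an adjusted p of 0.01 B4galt5 no longer passed and 2 positive genes were left. The counts of 3 positive and 1 negative were the same after adjustment over all p-values and after centring, which shifts values by 0.01. The row of the lowest p could not change them, since none of the 8 genes has another row with a p. None of the 16 recomputed values of single genes changed sign or call, but those by lowest p could not change. The median of the 8 genes was 0.10 with a base mean of at least 100 (5 genes) and 0.15 after centring. In the 10 partner lists, 12 of 62 tested genes were positive (19.4%, against 16.8% of all genes tested) and 22 negative (35.5%, against 16.7%). At 0.01 the counts were 10 (16.1%, against 13%) and 18 (29.0%, against 13.1%). Most of the negative genes have base means of 500 or more, where 54.1% of all genes passed with either sign. The negative genes include all 6 tested genes of the Gadd45 list. With the shortest annotated UTR, 7 of the 10 genes kept a site of 7 or more bases and 4 an 8mer; with the UTR of the paired transcript, chosen after seeing the data, 10 and 6. The SE was largest for Nptn, 0.39, and Arpp19, 0.36, at base means of 6.96 and 4.51; library depths are unknown, so what depth limits could not be measured.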
